A study of Mus musculus with 4 samples.

Results

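Lysosomal hydrolases, lysosomal membrane proteins and the subunits of the proton pump were followed in retinal microglia, immune cells that live in this tissue, after deletion of the kinase TAK1. The genes were taken by name: 23 listed lysosomal genes, together with each gene of the table whose symbol begins with Atp6v0 or Atp6v1. These were 42 of the 15586 genes in the table, namely 13 soluble proteins of the lysosome lumen, 8 membrane proteins, 20 pump genes and the transcription factor gene Tfeb. Cathepsins, Lgmn and Cd63 were left out of the set. Both groups held 2 libraries of 200 cells each, sorted on EYFP from retinas of mice aged 2 months. Control mice, Cx3cr1CreER/+;Tak1fl/fl, were injected intraperitoneally with corn oil for 5 days. For the TAK1 knockout, 5 days of intraperitoneal tamoxifen were given, at 75 mg/kg, and the genotype label of both knockout samples has Tak3 in place of Tak1. Map3k7, the gene of TAK1, read 0.03 and 0 FPKM (fragments per transcript length and sequencing depth) in control 1 and 2 and 0.02 and 0.08 in knockout 1 and 2, too low in all 4 libraries to check the labels. CreER, a tamoxifen-activated recombinase placed at the Cx3cr1 locus, is active in microglia and in other myeloid cells that use this locus. Tamoxifen was given to the knockout group alone, so drug and deletion cannot be told apart. The labels do not say whether the libraries of a group came from separate animals, so p-values measure the spread between these libraries, which may be technical.

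Lysosomes break down proteins, lipids and sugars taken up by endocytosis, phagocytosis and autophagy. Their hydrolases work in an acid lumen, which the vacuolar ATPase (V-ATPase) keeps acid by pumping protons: its V1 sector in the cytosol splits ATP, and its V0 sector in the membrane carries the protons across. Microglia are professional phagocytes and rely on this system to clear synaptic material, dying neurons and, in retinal degeneration, photoreceptor debris. TFEB and its relatives TFE3 and MITF switch on many lysosomal genes by binding a palindromic DNA element in their promoters.

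Expression was compared as log2(FPKM + 1), and a difference, given with its standard error (SE), is the knockout mean minus the control mean on that scale. No gene passed when p-values of limma's moderated test were adjusted by Benjamini-Hochberg over all 7823 tested genes, those with a mean of at least 1 FPKM (0 called, 0%; smallest adjusted p = 0.547). None of the 36 tested members was therefore called higher or lower, and the values below are given per library. With 2 against 2 libraries, the smallest p of an exact two-sided permutation test is 0.333. At an unadjusted p under 0.05, 1 of the 36 (Man2b1) was higher and 0 were lower, where 6.07% of all tested genes were higher and 1.62% lower. Both knockouts lay above both controls in 17 of the 36 members, against 27.8% of all tested genes. Both knockouts lay below both controls in 1 member, against 11.4% of all tested genes. Of the 16 members with a mean of at least 100 FPKM, 10 lay above and 1 below. Among all 1177 genes at that level, 19% lay above and 26.5% below. Median ratio scaling, which divides each library by the median ratio of its genes to their geometric mean, turned these 16 to 3 above and 5 below, and all genes of that level to 6.37% above and 52.8% below. Rescaling to the same sum and quantile normalization each gave 12 above and 0 below.

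Among the soluble lumen proteins, 6 of 11 tested genes lay above both controls and 0 below (4 and 4 after median ratio scaling). The pump had 8 of 16 above and 1 below (3 and 4 after that scaling), and the membrane proteins had 3 of 8 above and 0 below. On the log2(FPKM + 1) scale the median difference, knockout minus control, was 1.33 for lumen proteins, 1.29 for membrane proteins and 0.76 for the pump. The same median over all tested genes was 0.94, so the lists stood at 0.39, 0.35 and -0.18 relative to it. Among genes at a mean of at least 100 FPKM the all-gene median was -0.11, whereas those of the 5 lumen, 3 membrane and 8 pump genes at that level were 0.94, 0.82 and 0.73. After median ratio scaling the pump's own median was -0.12, a turn of direction, and those of lumen and membrane proteins were 1.05 and 0.43, beside 0.17 for all tested genes. Leaving out control 1 or control 2 put the lumen proteins at -0.16 or -0.33 relative to all tested genes, another turn of direction, and leaving out control 1 put the membrane proteins level with all genes, at -0.0023.

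**Figure D1:**
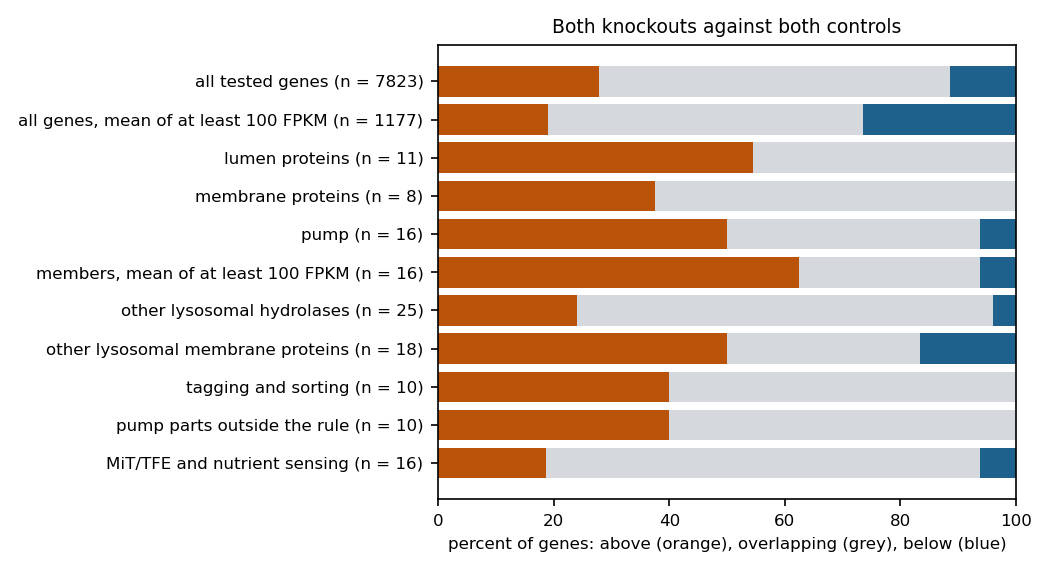
Percent of genes in which both knockouts lay above both controls (orange), overlapped with them (grey) or lay below them (blue), with the number of genes beside each list. The 16 members at a mean of at least 100 FPKM show 10 above and 1 below, whereas the 1177 genes at that level show 19% above and 26.5% below; median ratio scaling turned the members to 3 above and 5 below.

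Summed over its 13 genes, the lumen group read 1129 and 1061 FPKM in control 1 and 2 and 2723 and 1458 FPKM in knockout 1 and 2. The 8 membrane proteins summed to 1197 and 1540.02 FPKM for the controls versus 1883 and 1594 for the knockouts. The 20 pump genes summed to 4179 and 4274 FPKM in control 1 and 2, with 5826 and 6233 in knockout 1 and 2. In FPKM as deposited, all 3 sums were higher in both knockouts than in either control, by a ratio of means of 1.91 for the lumen, 1.27 for the membrane and 1.43 for the pump, but median ratio scaling gave ratios of 1.00, 0.658 and 0.761. The ratios were 2.13, 1.41 and 1.59 after rescaling to the same sum. The contrast between lumen and pump rested on 1 gene in each sum. In FPKM as deposited, the lumen ratio was 1.75 without Asah1, and the pump ratio 1.74 without Atp6v0e. The pump sums were the most even within groups, at 4226 ± 66.6 and 6029 ± 288 FPKM (SD, n = 2 each), while the lumen sums were 1095 ± 48.2 and 2091 ± 894 FPKM (SD, n = 2 each). As a share of each library's summed FPKM, all 42 genes took 0.671% and 0.796% for the controls versus 1.27% and 1.14% for the knockouts. By construction, no scaling by 1 factor per library alters such a share, so it is no check on the scaling. It amounts to rescaling to the same sum and depends on all other genes of the library. Since these are bulk libraries, fewer cells of a type and less RNA per cell cannot be told apart.

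Cell type markers differed between the same libraries. All 16 microglial markers were in the table and tested, and none was at 0 in every library; 9 lay above both controls and 2 below, and 4 and 3 after median ratio scaling. Their sum was 17374 and 18121 FPKM in control libraries against 42846 and 27886 in knockout libraries. Set against the microglial markers, the summed members made up 37.5% and 38.0% for the controls versus 24.3% and 33.3% for the knockouts, and the lumen proteins alone 6.50%, 5.86%, 6.36% and 5.23%. Relative to these markers, the summed members were lower in both knockouts than in either control, and the lumen proteins overlapped. The 20 rod markers, all tested, summed to 2489 and 3479.5 FPKM for the controls versus 7126 and 10069.8 for the knockouts, led by Gngt1, Pdc and Sag. Of the 10 monocyte markers, 8 were in the table, and their sum was 563 and 445 FPKM against 57.3 and 1.69. All 6 tested monocyte markers had a negative difference, but 1 (Ccr2) lay below both controls and 5 overlapped. In 3 of these 6, 1 library held more than 90% of the summed FPKM. The 9 perivascular macrophage markers in the table, of 10, summed to 2223 and 1752 FPKM against 189.8 and 840.1, with Cd163 at or under 0.02 FPKM throughout. Most of the control sums came from Ms4a7, at 1614 and 1547 FPKM against 189 and 155. These markers did not move together: of 8 tested, 4 had a positive and 4 a negative difference. F13a1, Cbr2, Lyve1 and Stab1, the 4 positive ones, were high in knockout 2 alone. In control 1, control 2, knockout 1 and knockout 2, in that order, the other lists summed to 4.39, 180.2, 912 and 833 FPKM for bipolar cells, 43.1, 249, 448 and 587 for amacrine and ganglion cells, 5171, 5399.8, 10211 and 2281 for Mueller glia and astrocytes, and 0.22, 2.43, 172 and 37.7 for endothelial cells and pericytes. Most of the Mueller glia and astrocyte sum was Apoe, at 4904, 4968, 9190 and 1647 FPKM in the same order. Of the 8 tested markers in that list, Glul was the 1 above both controls, at 84.6, 318, 774 and 599 FPKM. Vim was the 1 below. The part of these cell types in the results was not tested.

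**Figure D2:**
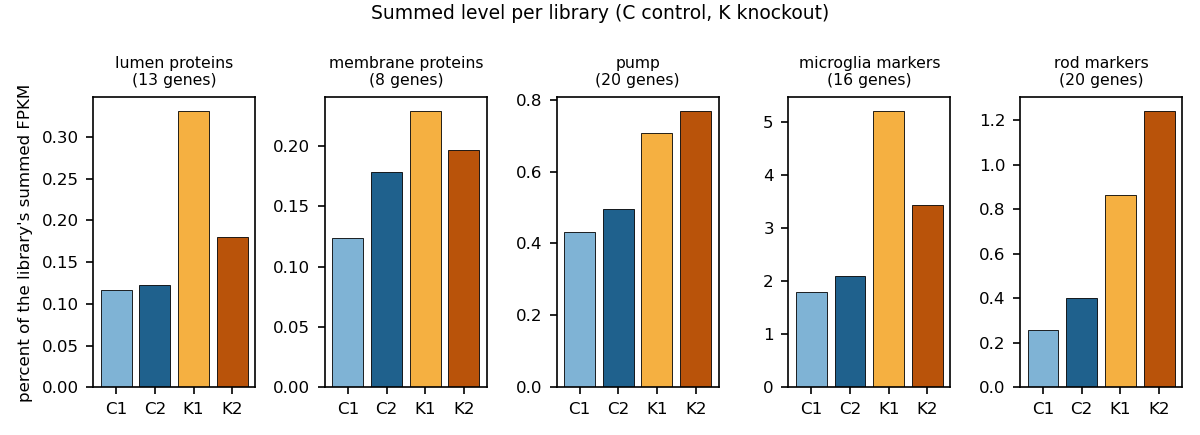
Share of each library's summed FPKM, in percent, taken by the lumen proteins, membrane proteins, pump, microglial markers and rod markers; each bar is 1 library (C1 and C2 control, K1 and K2 knockout), and each panel has its own axis from 0. In all 5 panels both knockout bars stand above both control bars; the microglial markers reach 5.20% in knockout 1 and the rod markers 1.24% in knockout 2.

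The element that TFEB and its relatives bind was looked for in the members' promoters. RefSeq promoter windows of GRCm38.p6, from 250 bases before to 50 after a transcript's start, were found for 34 of the 42 members. The 6-base E-box CACGTG, a palindrome and so read alike on both strands, occurred in the windows of 10 of these 34 genes (29.4%), against 8.09% of all 27025 genes with a window and 11.9% of tested ones. Its 8-base extension TCACGTGA, which contains the E-box and is the core of the lysosomal gene element, occurred in 5 of 34 (14.7%), against 1.12% and 2.49%. The 5 were Cln3 and Mcoln1 of the membrane proteins and Atp6v0d1, Atp6v0e and Atp6v1a of the pump. Here 60 bases around the extended element are shown for these 5 genes, 5′ to 3′ on the gene's strand, with the element in capitals:
Mcoln1 (chr8:3500447-3500506, plus strand): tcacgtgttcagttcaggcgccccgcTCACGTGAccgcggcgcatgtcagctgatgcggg
Cln3 (chr7:126583325-126583384, minus strand): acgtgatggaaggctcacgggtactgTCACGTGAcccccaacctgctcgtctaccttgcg
Atp6v0d1 (chr8:105566035-105566094, minus strand): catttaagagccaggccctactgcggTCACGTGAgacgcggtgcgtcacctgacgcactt
Atp6v0e (chr17:26676372-26676431, plus strand): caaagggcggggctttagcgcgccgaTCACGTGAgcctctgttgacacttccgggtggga
Atp6v1a (chr16:44139358-44139417, minus strand): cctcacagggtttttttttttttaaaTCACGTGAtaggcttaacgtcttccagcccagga

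With negative positions counted back from the transcript's start, the first base of the element lay at -46 in Mcoln1, -122 from the start annotated for 1 of the Cln3 transcripts, -4 in Atp6v0d1, base 3 of the transcript in Atp6v0e, and -132 in Atp6v1a. Lamp1 and Atp6v0b carried several copies of the 6-base element close to their starts, and Naglu carried 1. Their whole 300-base windows are shown because these genes contrast in their values, with each CACGTG in capitals:
Lamp1 (chr8:13158911-13159210, plus strand): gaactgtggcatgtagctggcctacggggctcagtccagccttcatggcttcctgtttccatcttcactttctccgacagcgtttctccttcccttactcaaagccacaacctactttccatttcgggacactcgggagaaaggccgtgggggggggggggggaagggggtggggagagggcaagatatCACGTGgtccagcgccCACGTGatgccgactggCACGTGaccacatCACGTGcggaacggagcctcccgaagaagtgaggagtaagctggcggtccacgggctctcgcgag
Atp6v0b (chr4:117887280-117887579, minus strand): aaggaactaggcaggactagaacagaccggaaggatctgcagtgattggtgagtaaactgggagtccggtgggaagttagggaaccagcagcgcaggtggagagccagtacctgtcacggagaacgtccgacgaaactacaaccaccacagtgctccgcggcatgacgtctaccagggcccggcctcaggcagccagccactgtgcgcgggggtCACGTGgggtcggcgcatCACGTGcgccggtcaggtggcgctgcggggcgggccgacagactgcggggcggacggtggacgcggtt
Naglu (chr11:101069844-101070143, plus strand): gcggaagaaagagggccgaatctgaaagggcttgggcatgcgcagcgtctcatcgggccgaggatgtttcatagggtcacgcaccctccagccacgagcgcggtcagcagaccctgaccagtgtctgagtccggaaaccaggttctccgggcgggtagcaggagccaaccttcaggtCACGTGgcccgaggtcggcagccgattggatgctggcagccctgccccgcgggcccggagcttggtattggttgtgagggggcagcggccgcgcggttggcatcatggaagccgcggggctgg

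Lamp1 held 4 copies within 61 bases of its start and Atp6v0b held 2 within 36. Of 13 tested members with a window that lay above both controls, 2 held CACGTG (Atp6v0b and Naglu) and 0 held TCACGTGA, while of 15 tested members whose groups overlapped, 6 held the former and 4 the latter. These matches describe the letters in the windows only.

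Among the lumen proteins, Asah1 (chr8:41340646-41397644 in GRCm38.p6, the build of all positions here), acid ceramidase, was the most abundant at 589 and 429.7 FPKM in control 1 and 2 and 1525 and 611 FPKM in knockout 1 and 2. Both knockouts lay above both controls, but knockout 2 was close to control 1. The difference was 0.94 ± 0.58 on the log2(FPKM + 1) scale (SE; limma adjusted p = 0.698), which was also the median of all tested genes. It was 0.056 after median ratio scaling, 0.28 without knockout 1 and 1.60 without knockout 2. Psap (chr10:60277628-60302600), the precursor of the saposins that help hydrolases reach their lipid substrates, read 13.4 and 70.0 FPKM in control 1 and 2, with 267 and 101 in knockout 1 and 2. The controls differed 5.22-fold from each other, more than the group ratio of 4.41.

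Gusb (chr5:129989011-130003049), beta-glucuronidase, which degrades glycosaminoglycans, read 28.1 and 51.0 FPKM in control libraries against 201 and 123 in knockout libraries, a ratio of means of 4.09. Hexa (chr9:59539540-59565109), the alpha subunit of beta-hexosaminidase, read 10.2 and 10.6 FPKM for the controls versus 107 and 47.1 for the knockouts, a ratio of 7.43. Man2b1 (chr8:85082730-85098739), lysosomal alpha-mannosidase, read 9.68 and 3.08 FPKM in control 1 and 2, with 55.1 and 93.7 in knockout 1 and 2, a ratio of 11.7. In these 3 genes the lowest knockout was well above the highest control. Their differences of 2.02 ± 1.00, 2.66 ± 1.29 and 3.47 ± 1.39 (log2 scale, SE) did not pass (limma adjusted p = 0.698, 0.698 and 0.643), and were 1.15, 1.82 and 2.67 after median ratio scaling. All 3 encode hydrolases that remove sugars. Naglu, which degrades heparan sulphate, read 0.06 and 0 FPKM in control libraries against 13.2 and 1.70 in knockout libraries, the sixth lumen gene above both controls.

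The other abundant lumen genes showed no order by group. Npc2, the soluble cholesterol carrier that hands cholesterol to NPC1, read 303 and 296 FPKM in control 1 and 2, with 311 and 271 in knockout 1 and 2. In FPKM as deposited it was the most even lumen gene, with a difference of -0.05 ± 0.60 (log2 scale, SE). That difference was -0.93 after median ratio scaling, and turned positive in 3 other scalings and without knockout 2 (0.05 to 0.12). Grn, progranulin, a secreted and lysosomal protein that microglia make in quantity, read 137 and 142 FPKM for the controls versus 222 and 142 for the knockouts. Only knockout 1 stood apart, and the difference of 0.35 turned to -0.53 on the log2 scale after median ratio scaling.

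Libraries of the same group spread widely in the scarcer genes. Tpp1, tripeptidyl peptidase 1, read 20.2, 50.5, 21.4 and 21.3 FPKM (control 1, control 2, knockout 1, knockout 2), so control 2 alone was high. Glb1, beta-galactosidase, read 4.91, 0.03, 0.11 and 33.7 FPKM, and Lipa, lysosomal acid lipase, read 13.4, 7.52, 0.02 and 11.8 FPKM in the same order. Each had 1 knockout far from the other, and neither had an order by group. Gaa, acid alpha-glucosidase, and Neu1, sialidase 1, were under the level for testing, at 0 to 0.96 and 0 to 0.44 FPKM.

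Cd68 (chr11:69664213-69666170), a heavily glycosylated membrane protein of macrophage lysosomes, was the most abundant membrane gene, at 851 and 363 FPKM in control 1 and 2, with 1057 and 917 in knockout 1 and 2. Both knockouts lay above both controls, and control 2 stood apart from the other libraries (difference 0.82 ± 0.55, log2 scale, SE; limma adjusted p = 0.698). Median ratio scaling turned the sign, to -0.06, and the difference was 1.44 without control 1 and 0.21 without control 2. Laptm5 (chr4:130912890-130936148), a lysosomal membrane protein of blood-derived cells, read 46.5 and 86.6 FPKM in control libraries against 227 and 208 in knockout libraries. Its knockouts agreed within 1.09-fold and its ratio of means was 3.28, with a difference of 1.76 ± 0.87 (log2 scale, SE; limma adjusted p = 0.698), or 0.89 after median ratio scaling. Npc1, the membrane transporter that exports cholesterol from lysosomes, read 0.02 and 0.05 FPKM for the controls versus 11.5 and 7.23 for the knockouts.

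The main structural glycoproteins of the lysosomal membrane did not separate. Lamp2, also needed for fusion with autophagosomes, read 268 and 934 FPKM in control 1 and 2, with 474 and 289.8 in knockout 1 and 2, so both groups overlapped and control 2 was the highest. Without control 2 its difference turned from -0.43 to 0.46 on the log2 scale. Lamp1 read 30.9 and 86.3 FPKM in control libraries against 49.4 and 144 in knockout libraries. Its 2 knockouts differed 2.92-fold, more than the group ratio of 1.65.

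Scarb2, the receptor that carries beta-glucocerebrosidase to lysosomes, read 0.09, 70.6, 43.1 and 4.04 FPKM (control 1, control 2, knockout 1, knockout 2). Mcoln1, the TRPML1 calcium channel that signals to TFEB, read 0, 0.03, 20.8 and 0 FPKM, and Cln3, mutated in juvenile Batten disease, read 0.04, 0.04, 0 and 23.0 FPKM in the same order. More than 90% of the summed FPKM of Mcoln1 came from knockout 1, and that of Cln3 from knockout 2. These 2 genes and Atp6v1g2 were the 3 of 36 tested members (8.33%) with such a pattern, against 32.1% of all tested genes. Tfeb read 5.42 and 2.32 FPKM for the controls versus 0 and 8.02 for the knockouts, and no order by group was seen.

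**Figure D3:**
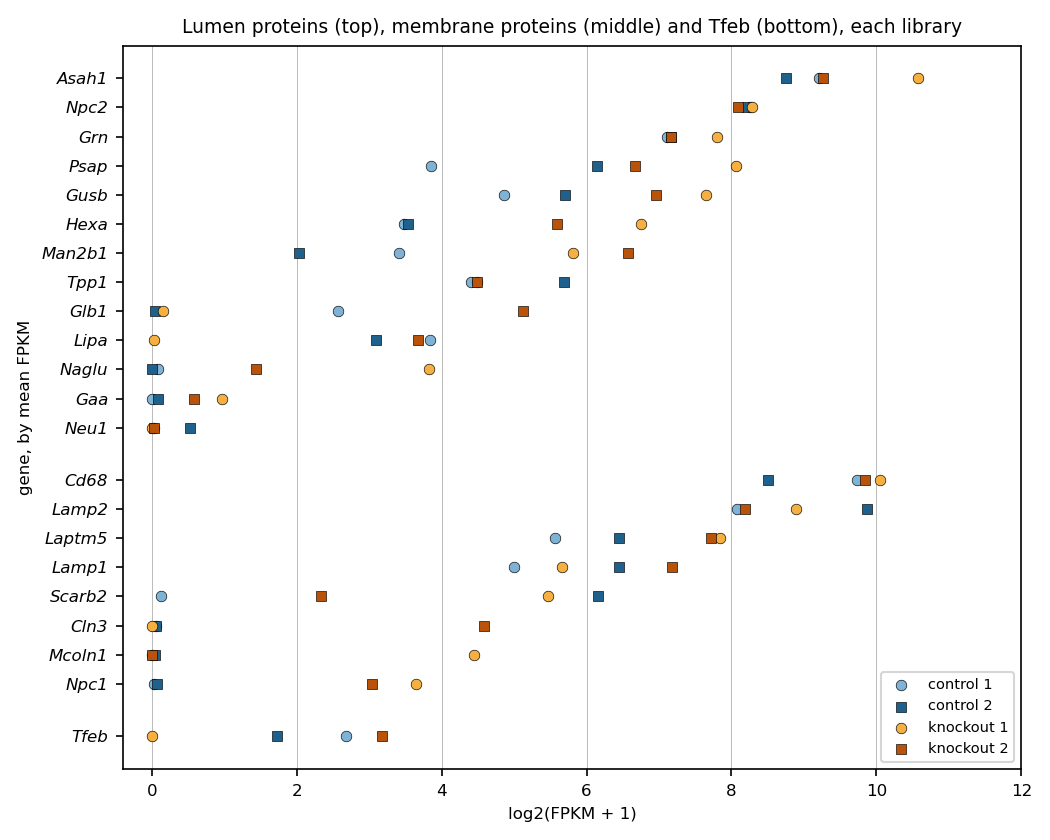
Level of each lumen protein, membrane protein and Tfeb on the log2(FPKM + 1) axis, 1 point per library, circles for replicate 1 and squares for replicate 2, blue for controls and orange for knockouts. Gusb, Hexa, Man2b1 and Laptm5 show both knockouts to the right of both controls, whereas Npc2 is even and Glb1 and Scarb2 spread over the axis within a group; Man2b1 runs from 3.08 to 93.7 FPKM.

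In the pump, the V0 sector is described before the V1 sector. Atp6v0e (chr17:26676396-26699647), the small e subunit of the membrane sector, was the most abundant member of all, at 1576 and 1598 FPKM in control 1 and 2, with 1344 and 1525 in knockout 1 and 2. It was the 1 member below both controls, by -0.15 ± 0.30 (log2 scale, SE, limma adjusted p = 0.830). This difference was -1.03 after median ratio scaling, 0.014 after rescaling to the same sum and 0.10 after quantile normalization. Atp6v0b and Atp6v0c encode the c'' and c proteolipids, which form the rotating ring. Atp6v0b read 331 and 208 FPKM in control libraries against 679 and 530.03 in knockout libraries, and Atp6v0c read 113 and 292 FPKM against 416 and 388. Both lay above both controls, by 1.19 ± 0.58 and 1.14 ± 0.74 (log2 scale, SE; limma adjusted p = 0.698 for each). After median ratio scaling these differences were 0.31 and 0.26, and that of Atp6v0c was 0.46 without control 1 and 1.82 without control 2.

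In the V1 sector, Atp6v1g1 (chr4:63544765-63550701), a subunit of the peripheral stalk, read 835 and 981 FPKM for the controls versus 1158 and 1882 for the knockouts. Atp6v1f, part of the central rotor, read 638 and 437 FPKM in control 1 and 2, with 905 and 684 in knockout 1 and 2. Atp6v1e1, the stalk partner of the G subunit, read 101 and 179.5 FPKM against 267 and 197. In all 3 genes the groups did not overlap, but in Atp6v1f and Atp6v1e1 the lower knockout exceeded the higher control by less than the controls differed from each other. Their differences were 0.71 ± 0.40, 0.57 ± 0.48 and 0.76 ± 0.78 (log2 scale, SE; limma adjusted p = 0.698 for each), and each turned negative after median ratio scaling, to -0.18, -0.31 and -0.12. Leaving out 1 library put them at 0.36 to 1.06, 0.30 to 0.85 and 0.35 to 1.17.

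The remaining abundant V1 genes overlapped. Atp6v1c1, which bridges stalks and membrane sector, read 144 and 351 FPKM in control libraries against 276 and 527 in knockout libraries. Atp6v1d, of the central rotor, read 248 and 181 FPKM for the controls versus 403 and 241 for the knockouts. In each, 1 control exceeded 1 knockout. Median ratio scaling turned both from 0.76 and 0.55 to -0.12 and -0.33 on the log2 scale.

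In the catalytic head, values differed between subunits. Atp6v1b2, the B subunit used in most tissues, read 63.1 and 1.66 FPKM in control 1 and 2, with 159 and 124 in knockout 1 and 2. Its difference of 3.44 on the log2 scale rested on control 2: it was 1.14 without that library and 5.74 without control 1. Atp6v1a, the A subunit that splits ATP and sits beside B in equal number, read 29.3, 0.16, 0.81 and 6.28 FPKM (control 1, control 2, knockout 1, knockout 2). Atp6v1h, the regulatory H subunit, read 12.8, 0.17, 50.03 and 12.3 FPKM in the same order. Control 2 was the lowest library in all 3 genes, and the groups were apart in Atp6v1b2 alone. Atp6ap1, the accessory protein used in pump assembly, read 28.2 and 28.6 FPKM in control libraries against 35.9 and 114 in knockout libraries.

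Atp6v0d1, which links the ring to the central rotor, read 42.5 and 14.8 FPKM for the controls versus 35.0 and 0.77 for the knockouts. The large a subunit, which holds the proton path, was scarce in each of its measured forms. Atp6v0a2 read 9.41, 0, 4.96 and 0.01 FPKM (control 1, control 2, knockout 1, knockout 2), and Atp6v0a1 stayed at or under 0.13 FPKM. Tcirg1, the a3 form of macrophages and osteoclasts, lies outside the naming rule and read 0, 5.36, 9.81 and 0.05 FPKM. None of these 3 forms reached 10 FPKM in any library, whereas Atp6v0e of the same sector read at least 1344 FPKM in each.

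Some paralogs with a restricted tissue pattern were at the floor, and others were not. Atp6v1b1 and Atp6v1g3, forms of kidney and inner ear or kidney, read 0 and at most 0.04 FPKM, and Atp6v0d2, of osteoclasts and some macrophages, at most 0.03 FPKM. Atp6v1g2, a form of neurons, read 6.50, 0.10, 87.6 and 0.25 FPKM, so that 1 knockout held 92.7% of the sum. Atp6v0e2, also rich in brain, read 0.04 and 0.08 FPKM in control 1 and 2, with 4.56 and 2.48 in knockout 1 and 2, beside rod marker sums that were higher in the same libraries; the part of neurons in this value was not tested.

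**Figure D4:**
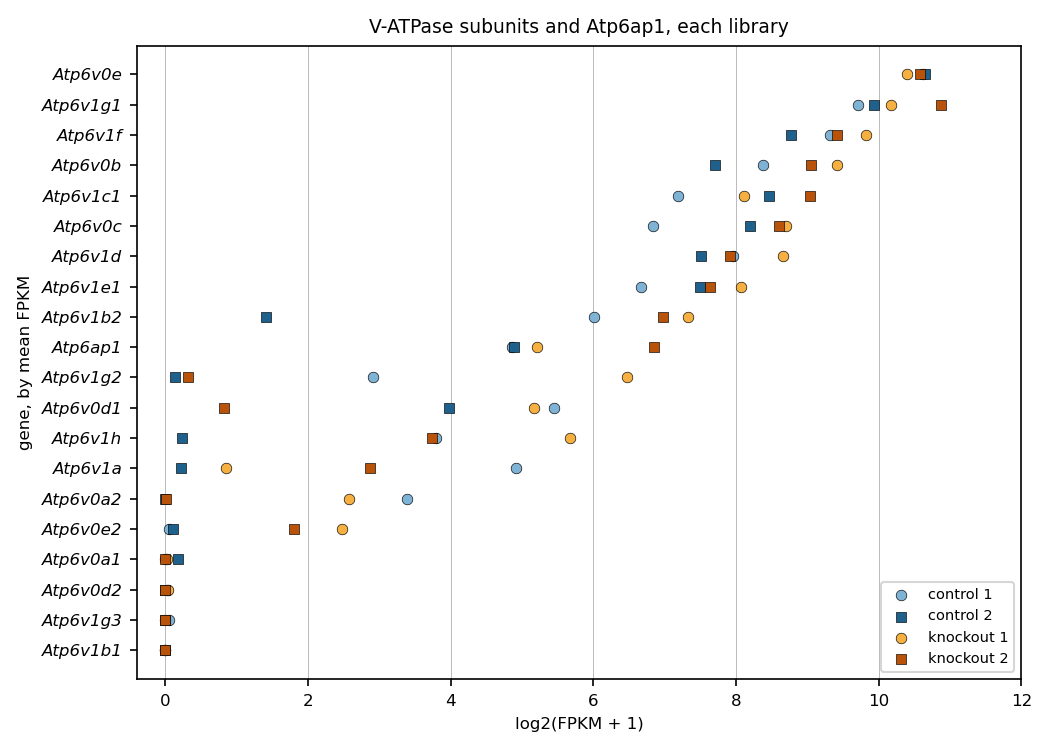
Level of each pump gene on the log2(FPKM + 1) axis, 1 point per library, circles for replicate 1 and squares for replicate 2, blue for controls and orange for knockouts. The 8 most abundant genes keep their libraries close together and most show orange to the right of blue, while Atp6v1g2, Atp6v1h and Atp6v1a spread widely within groups and 4 paralogs sit at 0.13 FPKM or less; median ratio scaling turned the sign for Atp6v1g1, Atp6v1f, Atp6v1e1, Atp6v1c1 and Atp6v1d.

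Among the 16 members at a mean of at least 100 FPKM, the 2 controls differed 1.68-fold at the median (1.01 to 5.22) and the 2 knockouts 1.46-fold (1.07 to 2.64). The pair was within 2-fold in 11 of 16 genes for the controls and 14 of 16 for the knockouts. Of the 42 members, 22 read at least 1 FPKM in all 4 libraries, and 6 under 1 FPKM in all 4. Across the 42 genes Pearson's r of log2(FPKM + 1) was 0.82 to 0.88 between any 2 libraries, within and across groups alike. Across all tested genes it was 0.51 to 0.59. The 42 include the 6 genes under 1 FPKM in all 4 libraries, which the filter for testing leaves out, so these ranges are not matched. Both are across genes, which are not independent replicates. Transcript length was set beside level. Spearman's rho between the longest annotated transcript and mean FPKM was -0.39 over the 20 pump genes, -0.05 over the 13 lumen genes, -0.43 over the 8 membrane genes, -0.24 over all 42 members and -0.44 over 7650 tested genes with a length, all values of the same 4 libraries.

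**Figure D5:**
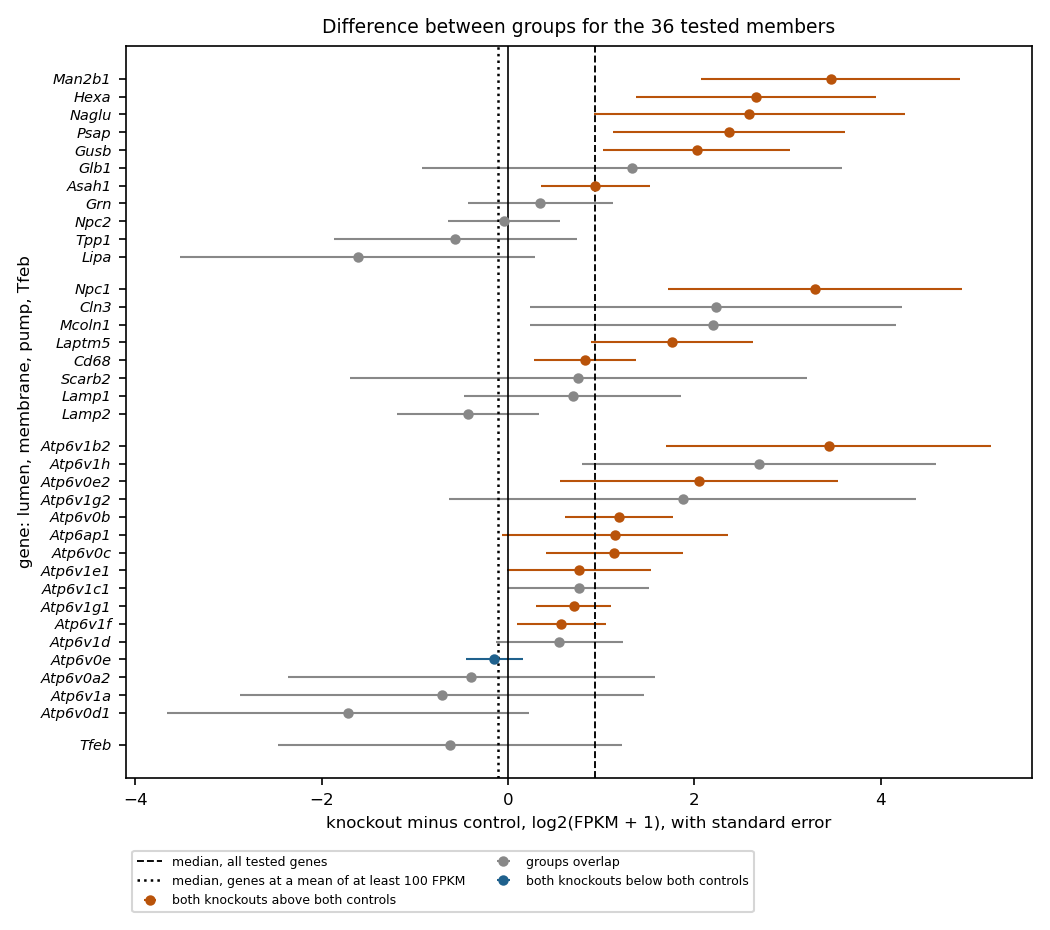
Difference between groups for the 36 tested members, knockout minus control on the log2(FPKM + 1) axis, with the standard error of the limma fit as bars; the dashed and dotted lines mark the median of all tested genes, 0.94, and of those at a mean of at least 100 FPKM, -0.11. Man2b1, Atp6v1b2 and Npc1 lie farthest right, at 3.47, 3.44 (1.14 without control 2) and 3.30, and Atp6v0d1 farthest left at -1.72; no difference passed the adjusted threshold, and 7 of 23 members described in full turned sign after median ratio scaling.

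Other genes of the same compartment were counted in 5 lists, to be read against the 27.8% of all tested genes that lay above both controls and the 11.4% that lay below. Of 25 tested further hydrolases and activators, 6 lay above both controls and 1 below, with a median of 0.98 against 0.94 for all tested genes and 0 called (4 above and 3 below after median ratio scaling). Rnaset2b, an acid ribonuclease gene, read 154 and 114 FPKM against 949.7 and 553. Its near-identical neighbour Rnaset2a read 453 and 1058 FPKM against 2048 and 903, so its groups overlapped. Reads may have been split between these genes. Dpp7, a dipeptidase gene, read 0.37 and 0.04 FPKM against 29.4 and 46.8. Gm2a, the activator that presents ganglioside to its hydrolase, lay on the other side, at 803 and 1694 FPKM for the controls versus 246 and 555 for the knockouts. Its difference was -1.66 ± 0.63 (log2 scale, SE; limma adjusted p = 0.619).

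Of 18 tested further membrane proteins, 9 lay above both controls and 3 below (median 1.67), and 6 and 5 after median ratio scaling. Laptm4b, a relative of Laptm5, read 43.6 and 87.7 FPKM in control 1 and 2, with 309 and 260.3 in knockout 1 and 2. Pip4p1, a lipid phosphatase, and Tmem192 read 0.14 to 0.32 FPKM in control libraries and 42.8 to 204 in knockout libraries, and Hgsnat, which acetylates heparan sulphate, read 0.12 and 0.18 FPKM against 8.90 and 26.6. For the tagging and sorting of lysosomal enzymes, 4 of 10 tested genes lay above and 0 below (median 0.83). M6pr, the cation-dependent mannose 6-phosphate receptor that carries hydrolases from the Golgi, read 0.18 and 8.72 FPKM against 137 and 166. Sumf1, which activates sulphatases, read 4.88 and 0.05 FPKM against 34.1 and 64.5, and Gnptab, which builds the mannose 6-phosphate tag, read 0 and 0.05 against 11.0 and 17.6, with Gga1, a sorting adaptor, at 0.02 and 0 against 4.68 and 2.42.

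Of 10 tested pump parts and assembly factors outside the naming rule, 4 lay above and 0 below (median 2.30). Rogdi, of the complex that reassembles the pump, read 1.48 and 0.42 FPKM in control libraries against 104 and 48.8 in knockout libraries. Oxr1 read 0.28 and 0.40 FPKM against 2.31 and 202, and Tmem199 0.37 and 0.39 against 122 and 1.10, so 1 knockout carried each value; Ccdc115, the partner of Tmem199, read 24.9 and 0.33 against 35.9 and 65.4. Among 16 tested genes of the TFEB family and lysosomal nutrient sensing, 3 lay above and 1 below (3 and 4 after median ratio scaling), with a median of -0.09, under that of all tested genes. Tfe3, a relative of Tfeb, was the 1 below, at 7.19 and 4.88 FPKM in the controls and 0.02 in both knockouts. Lamtor3, of the Ragulator scaffold, read 69.6 and 0.89 FPKM against 230.1 and 234, Rragc, a Rag GTPase, 28.7 and 0.15 against 50.1 and 56.3, and Fnip1 0.19 and 0.07 against 18.2 and 2.88. None of the genes in these lists was called, and at an unadjusted p under 0.05 they held 9 higher and 1 lower of 79, where 6.07% of all tested genes were higher and 1.62% lower.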

How the data were processed

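Retinal microglia were sorted at 200 cells per library, and cDNA was amplified by a full-length SMART-seq protocol and PCR, per the labels' protocols. The authors deposited 1 FPKM value per gene and library, per the file headers; mm10 is the build in the submitters' processing notes. Aligner, quantifier and annotation: not given in the sources used here. Low values showed no common step of 1 read (7.77% to 11.7% of ratios near the commonest), so depth is unknown and no counting interval is given. With no strand or copy handling stated, reads shared with overlapping genes, pseudogenes or paralogs cannot be told apart.

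From the 15586 genes, log2(FPKM + 1) of the 7823 with a mean of at least 1 FPKM was tested two-sided by limma 3.58.1 (R 4.3.3), with a prior variance that follows the mean, 2 residual and 3.99 prior degrees of freedom. P-values were adjusted by Benjamini-Hochberg, with 0.05 as threshold. Low genes change by more than this scale shows. The code was tested on simulated data. Promoters are from RefSeq (GRCm38.p6), and transcript lengths from GENCODE M21.

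Members and lists were chosen with earlier results of these data known. Members with a mean of at least 100 FPKM or without overlap of groups are given in full, further lists by their 4 smallest p, and markers by highest mean; some genes of these lists are not reported here. Tcirg1, members given beyond this rule, and Rnaset2a were named after their values were seen. Alternatives were other pseudocounts, filters, scalings and prior variances, a threshold of 0.1, a replicate block, and each library left out.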

Additional observations from a re-analysis of the deposited data

How the results depend on the processing

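Of 23 members described in full, 9 changed sign under a scaling and 2 without 1 library. After median ratio scaling Atp6v1c1 was -0.12, Atp6v1d -0.33, Atp6v1e1 -0.12, Atp6v1f -0.31, Atp6v1g1 -0.18, Cd68 -0.058 and Grn -0.53 on the log2 scale. The median of all tested genes moved from 0.94 to 0.17, the pump's median was -0.12, pump genes were 3 above and 4 below, lumen genes 4 below, and members at a mean of at least 100 FPKM 3 above and 5 below. Its factors were 0.916 and 0.625 for the controls and 1.49 and 1.31 for the knockouts, from 6484 genes whose median lowest value was 0.15 FPKM. Rescaling to the same sum gave Npc2 0.12 and Atp6v0e 0.014, and quantile normalization 0.084 and 0.10, with 3 lumen genes below. Median ratio scaling over genes at a mean of at least 100 FPKM, chosen after seeing the data, gave Npc2 0.050. Pump genes below were 0 with the same sum and that last scaling, and members at a mean of at least 100 FPKM below were 0 with these and quantile normalization. Relative to all tested genes the pump's median was 0.63 with no filter, 0.84 at a mean of at least 100 FPKM and 0.93 with quantile normalization; at that filter 3 lumen and 5 pump genes lay above.

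The replicate block called 15 genes higher and 20 lower and 0 members. Deviations of same-numbered libraries correlated at 0.017 over tested genes. With only 2 libraries in each group, this value cannot settle whether same-numbered libraries were processed together. Leaving out 1 library leaves 1 sample in a group, which is assumed to vary like the other group. Genes called higher ranged from 0 without either control to 697 without knockout 1 and 1306 without knockout 2, and genes called lower from 0 to 4 and 5. Members called ranged from 0 to 4: Npc1 without knockout 1 (limma adjusted p = 0.0432), and Naglu, Npc1, Atp6v0e2 and Mcoln1 without knockout 2 (0.0295 to 0.0326). Over these 4 omissions the pump's median ran from 0.54 without knockout 1 to 0.99 without control 1, pump genes above from 8 to 13 and below from 1 to 4, membrane genes above from 3 to 6 and below from 0 to 2, and Npc2 from -0.15 to 0.055. Lumen genes above ran from 6 to 8, and 1 lay below in each omission that moved it. With 1 library fewer, groups have fewer ways to overlap, so such counts tend to rise for genes at large. Of all 1177 genes at a mean of at least 100 FPKM, 19% lay above and 26.5% below with all 4 libraries. With 1 left out, 30.4% to 35.6% lay above and 37% to 43.5% below. The 16 members at that level then had 11 to 13 above and 1 to 2 below. Shares over all tested genes with 1 library left out are not given here, so the lumen, membrane and pump counts have no matching background. Lamp2 ran from -1.33 to 0.46, the latter without control 2. The causes were not tested. With depth unknown, a gene listed near 0 cannot be told from one missed.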
